A study of Homo sapiens with 6 samples.

Results

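The expression of 10 genes of lipoprotein handling and cholesterol export was followed in A375 cells, an established human melanoma line, after knockdown of the kinase ERK3, an unusual member of the MAP kinase family that is the product of MAPK6. They are the apolipoproteins APOE, APOC1 and APOD, the lipoprotein receptors VLDLR, LRP1 and LRP8, the cholesterol exporters ABCA1 and ABCG1, and the liver X receptors NR1H2 and NR1H3. The genes were taken by symbol, and the set was chosen by the log2 change of APOE, which was higher after knockdown. Of the 10 listed genes, 9 had a probe set among the 17687 genes compared, and the expression of NR1H2 was not analysed here. The control group (siCon, 3 arrays) had received a commercial negative control siRNA and the other group (siERK3, 3 arrays) a predesigned siRNA against ERK3. Both groups were the same cell line grown in the same serum-containing medium with the same transfection reagent, and RNA was taken 3 days after transfection. Each array gave a log2 signal per probe set, and no label tells whether a group's 3 arrays came from separate cultures, so the errors given below measure only the spread between arrays.

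Apolipoproteins are the protein part of lipoprotein particles. APOE is a ligand by which particles bind lipoprotein receptors on the surface of cells, and it accepts the cholesterol that the transporters ABCA1 and ABCG1 move out of the cell. The liver X receptors (LXRs) are nuclear receptors switched on by oxidised sterols, and APOE, APOC1, ABCA1 and ABCG1 are among their known target genes. In melanoma, secreted APOE is known as a restraint on invasion and vessel recruitment, acting through LRP1 on the tumour cells and LRP8 on endothelial cells.

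The knockdown and the identity of the cells were examined first. MAPK6 read 13.45, 13.55 and 13.62 on the siCon arrays and 10.54, 10.32 and 10.67 on the siERK3 arrays, a log2 change of -3.03 (SE 0.14, limma adjusted p = 0.000133). A level is called above background here when it exceeds the 95th percentile of the 612 negative control probe sets on the same array, which lay between 7.32 and 7.56. Of the 8 measured melanocyte lineage markers, MITF, SOX10, S100B and S100A1 were above background on all 6 arrays. The pigmentation genes MLANA, PMEL, TYR and TYRP1 were below it on all 6. Over all genes, 169 of 17687 (0.956%) passed the test, 79 higher and 90 lower in siERK3. Because the rise of APOE in this contrast led to the set, the values of the 9 genes are given as a description, with limma's standard errors and 95% intervals and without p-values.

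The 9 genes did not share a direction. APOE was 2.52-fold higher in siERK3, while the other lipid carriers, the receptors, the exporters and NR1H3 had log2 changes between -0.20 and 0.56. Of the log2 changes, 5 were above 0 and 4 below, with a median of 0.24, against a median of -0.0014 over all genes. That median is the value of APOD, which was below background, and the set was chosen in this contrast, so no shift is read from it. Of the 4 genes above background on all 6 arrays, APOE (1.34) and LRP1 (0.28) were higher. The others, LRP8 (-0.07) and ABCA1 (-0.15), were lower.

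APOE (probe set TC1900011758.hg.1) read 7.91, 7.44 and 7.73 on siCon 1 to 3 and 8.73, 9.25 and 9.10 on siERK3 1 to 3. The lowest siERK3 array stood 0.82 log2 units above the highest siCon array, and all 6 arrays were above background, siCon 2 by the smallest margin (7.44 against a background of 7.34). Group means were 7.69 ± 0.24 and 9.03 ± 0.27 (SD, n = 3 each). The log2 change was 1.34 (SE 0.18, 95% interval 0.92 to 1.75), or 2.52-fold with an interval of 1.89-fold to 3.37-fold. Among all genes, 17 had a larger rise. APOE was the member of the set past the threshold, 1 of 9 genes against 0.956% of all genes, a count that only restates how the set was chosen. With siCon 1, siCon 2, siCon 3, siERK3 2 or siERK3 3 left out, its log2 change was 1.44, 1.21, 1.36, 1.22 or 1.30 and the gene no longer passed. It passed without siERK3 1, with a log2 change of 1.48. These refits use the arrays that chose APOE, so they describe its dependence on single arrays and are no sign of stability.

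APOE and APOC1 lie side by side on chromosome 19, so the window around the start of each is shown, with that of the exporter ABCA1, another LXR target. Each window runs from 250 bases before to 50 bases after a RefSeq transcript start (GRCh38.p14), written 5′ to 3′ along the gene. Capitals mark the GC box GGGCGG or its complement CCGCCC. The APOE window is chr19:44905546-44905845 on the plus strand, the first of 3 that RefSeq gives for this gene, the APOC1 window is chr19:44914422-44914721 on the plus strand and the ABCA1 window is chr9:104928106-104928405 on the minus strand.
APOE: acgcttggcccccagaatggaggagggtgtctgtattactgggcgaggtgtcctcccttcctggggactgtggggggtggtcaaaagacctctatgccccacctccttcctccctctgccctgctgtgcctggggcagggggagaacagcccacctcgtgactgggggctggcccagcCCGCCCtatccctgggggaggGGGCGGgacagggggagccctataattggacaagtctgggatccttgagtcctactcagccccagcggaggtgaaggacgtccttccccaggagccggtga
APOC1: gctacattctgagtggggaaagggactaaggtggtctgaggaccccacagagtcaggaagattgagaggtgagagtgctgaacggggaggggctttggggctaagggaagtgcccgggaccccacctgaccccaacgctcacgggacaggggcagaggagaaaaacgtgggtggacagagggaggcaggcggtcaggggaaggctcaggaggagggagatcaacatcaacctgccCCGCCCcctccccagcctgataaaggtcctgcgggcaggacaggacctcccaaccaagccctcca
ABCA1: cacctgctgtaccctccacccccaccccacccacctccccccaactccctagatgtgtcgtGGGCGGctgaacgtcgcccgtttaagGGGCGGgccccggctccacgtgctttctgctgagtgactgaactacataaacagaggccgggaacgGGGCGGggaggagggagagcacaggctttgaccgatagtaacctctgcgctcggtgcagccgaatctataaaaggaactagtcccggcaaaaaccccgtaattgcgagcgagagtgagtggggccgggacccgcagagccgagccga

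RefSeq windows were found for 8 of the 10 genes, all but APOD and ABCG1, 13 windows in all. NR1H3 gave 4 of them and APOE 3, and some windows of these genes overlap. The GC box, a site of SP1-type factors, was searched on both strands. It was present in 9 of the 13 windows, 2 times in the APOE window shown, 1 time in that of APOC1 and 3 times in that of ABCA1, and 45% of all 35116 windows of 300 bases hold it. The share of G and C was 65%, 62.3% and 62.7% in these 3 windows, against a median of 58.7% over all windows. The 45% is not matched for this share. The nuclear receptor hexamer AGGTCA was found in 1 of the 13 windows, of NR1H3, against 13.8% of all windows. A pair of these hexamers head to tail with 4 bases between them, the exact-letter form of an LXR element, was in none of the 13 and in 0.0199% of all windows. A form this rare would be missing from nearly any 13 windows, so nothing is read from its absence. AP-1 (TGANTCA) and the M-box (CATGTG), the melanocyte form of the E-box, had 0 matches in the 13 windows, against 7.71% and 11.1% of all windows. These are matches of letters in short windows and are not binding sites. Known LXR elements deviate from the exact letters or lie outside such windows. An element with deviating letters inside a window shown would not have been found or marked.

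APOC1, a small apolipoprotein that slows particle uptake by receptors, read 6.50, 7.45 and 6.59 in siCon and 6.81, 7.42 and 7.31 in siERK3. The siCon 2 array was the highest of the 6, so the groups overlapped, and 1 array of each group was above background. The log2 change was 0.34 (SE 0.27, 95% interval -0.28 to 0.95), and it was 0.64 without siCon 2 and 0.16 without siCon 1. On siCon 2, APOC1 was thus at its highest and APOE at its lowest.

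APOD, a lipocalin-type carrier of small lipids, read 6.32, 6.52 and 6.27 in siCon and 6.61, 6.56 and 6.67 in siERK3. The siERK3 values were higher by a narrow margin of 0.043, with a log2 change of 0.24 (SE 0.13, 95% interval -0.058 to 0.54). All 6 arrays were below background, so no fold is given.

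**Figure D1:**
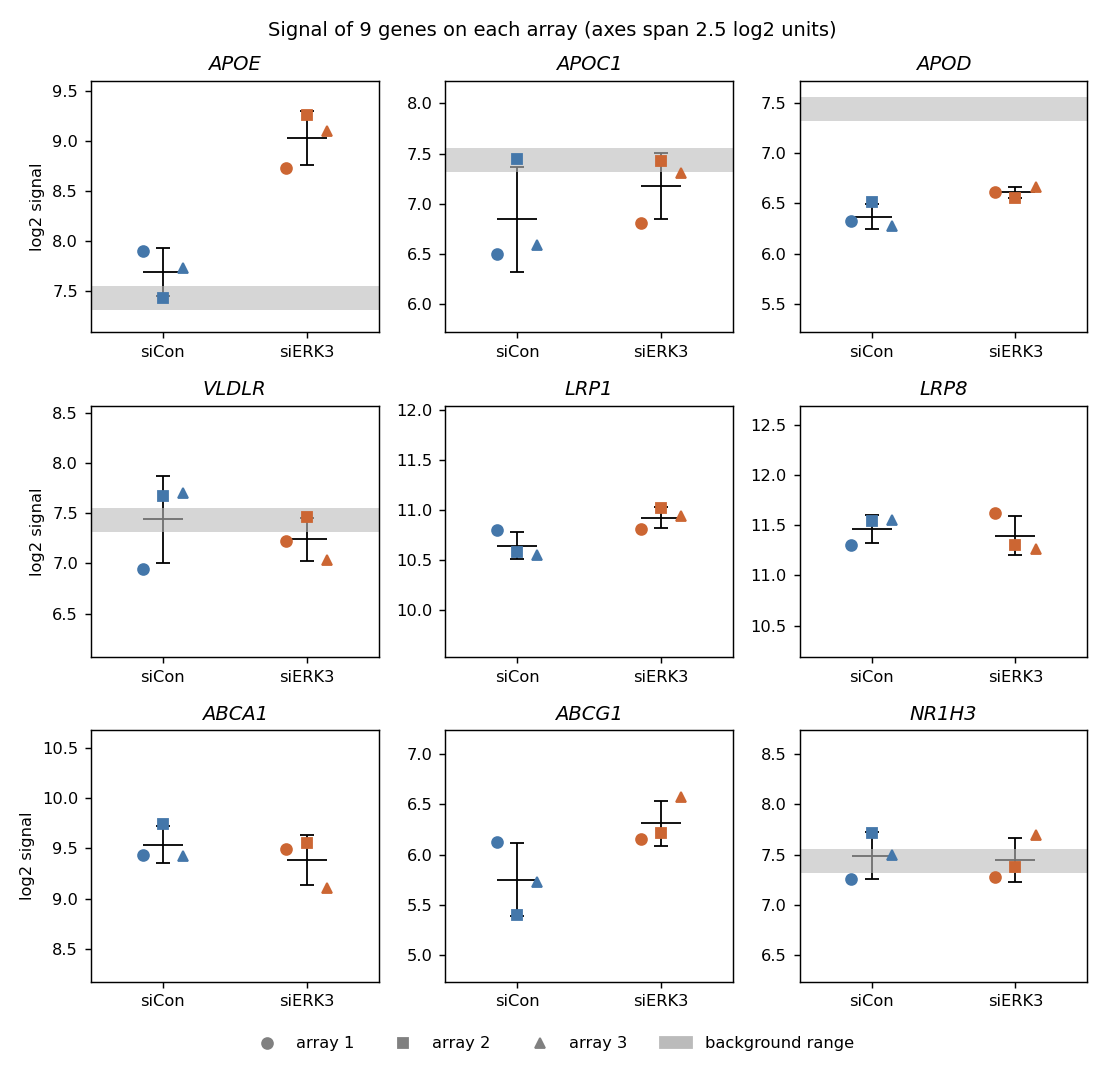
Log2 signal (vertical axes, each spanning 2.5 log2 units) of the 9 measured genes on each siCon and siERK3 array; symbols are arrays 1 to 3 of a group, horizontal bars and whiskers are the mean and SD (n = 3), and the grey band is the range of the background over the arrays. APOE shows the widest gap between the groups, 0.82, and APOD and ABCG1 lie below the band on all 6 arrays.

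The receptors showed small differences. LRP1, a large endocytic receptor and the APOE receptor known on melanoma cells, read 10.80, 10.58 and 10.55 in siCon and 10.81, 11.02 and 10.94 in siERK3. The groups were separated by 0.014, less than the SD within either group (0.13 in siCon and 0.11 in siERK3). The log2 change of LRP1 was 0.28 (SE 0.14, 95% interval -0.032 to 0.59), and it ran from 0.23 to 0.36 when 1 array was left out.

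LRP8, also known as APOE receptor 2, a receptor for both APOE and reelin, read 11.30, 11.54 and 11.55 in siCon and 11.62, 11.30 and 11.26 in siERK3. Here siERK3 1 was the highest and siERK3 3 the lowest of the 6 arrays, so the groups overlapped across the whole range. Its log2 change was -0.07 (SE 0.15), with an interval of -0.42 to 0.28. It was -0.18 without siERK3 1 and -0.0036 without siERK3 3.

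VLDLR, which binds APOE-rich particles and reelin, read 6.94, 7.67 and 7.70 in siCon and 7.22, 7.46 and 7.04 in siERK3. It lay close to background, above it on 2 siCon arrays and 1 siERK3 array. The siCon 1 array was the lowest of the 6, and the log2 change of -0.20 (SE 0.22, 95% interval -0.70 to 0.31) became -0.44 without it. Without siCon 3, siCon 2 or siERK3 3 it was -0.066, -0.078 or -0.094.

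Of the exporters, ABCA1, which loads cholesterol onto lipid-poor apolipoproteins, read 9.44, 9.75 and 9.42 in siCon and 9.50, 9.56 and 9.10 in siERK3. The groups overlapped, and siERK3 3 was the lowest array. The log2 change was -0.15 (SE 0.17, 95% interval -0.54 to 0.23), with -0.0092 without siERK3 3 and -0.24 without siERK3 2.

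ABCG1, which passes cholesterol to mature HDL particles, read 6.12, 5.40 and 5.72 in siCon and 6.15, 6.21 and 6.57 in siERK3. Its log2 change of 0.56 (SE 0.20, 95% interval 0.095 to 1.03) followed that of APOE in size among the 9 genes. The gap between the groups was 0.029, all 6 arrays were below background, and the change was 0.39 without siCon 2 and 0.75 without siCon 1.

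NR1H3 encodes LXR alpha, the LXR known from liver, fat and macrophages. It read 7.25, 7.72 and 7.50 in siCon and 7.27, 7.38 and 7.69 in siERK3, above background on 2 arrays of the former and 1 of the latter. The groups overlapped, with a log2 change of -0.04 (SE 0.17) and an interval of -0.44 to 0.35, and the sign turned without siCon 2 (0.071) or siERK3 1 (0.044). These are transcript levels of the receptor, and its activity was not measured.

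**Figure D2:**
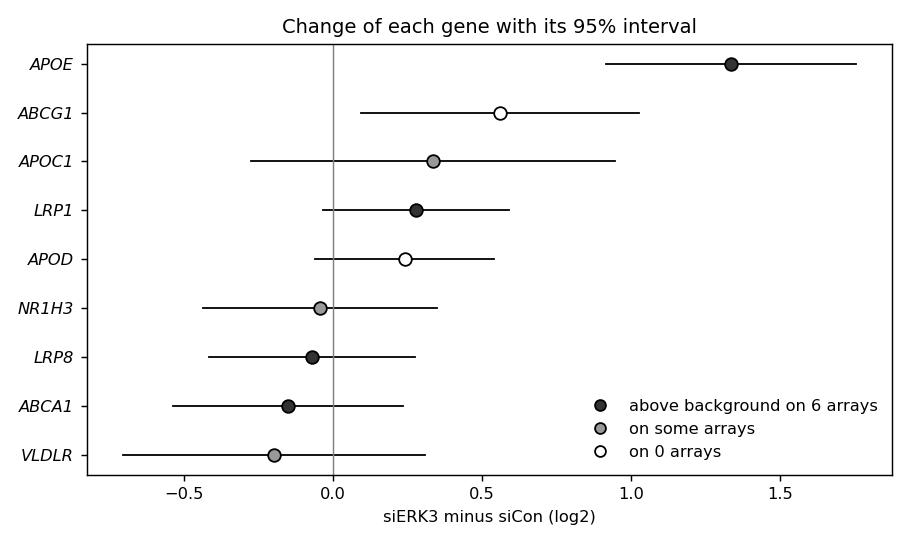
Log2 change (siERK3 minus siCon, horizontal axis) of each of the 9 genes with its 95% interval from limma (3 arrays per group); dark points were above background on 6 arrays, grey points on some and white points on 0. The intervals of APOE (0.92 to 1.75) and ABCG1 (0.095 to 1.03) do not include 0. Over all genes, 13.5% had a limma p under 0.05 before adjustment, in either direction. The rise of APOE chose the set and ABCG1 was below background throughout, so nothing is read from these 2 intervals.

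The values of 4 of the 9 genes (APOE, ABCG1, LRP1 and APOD) did not overlap between the groups, all higher in siERK3, where 19.8% of all genes did not overlap in one direction or the other. For 3 of these 4 the gap was 0.043 or less, against 0.82 for APOE. The set was chosen in this contrast, so nothing is read from the count.

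**Figure D3:**
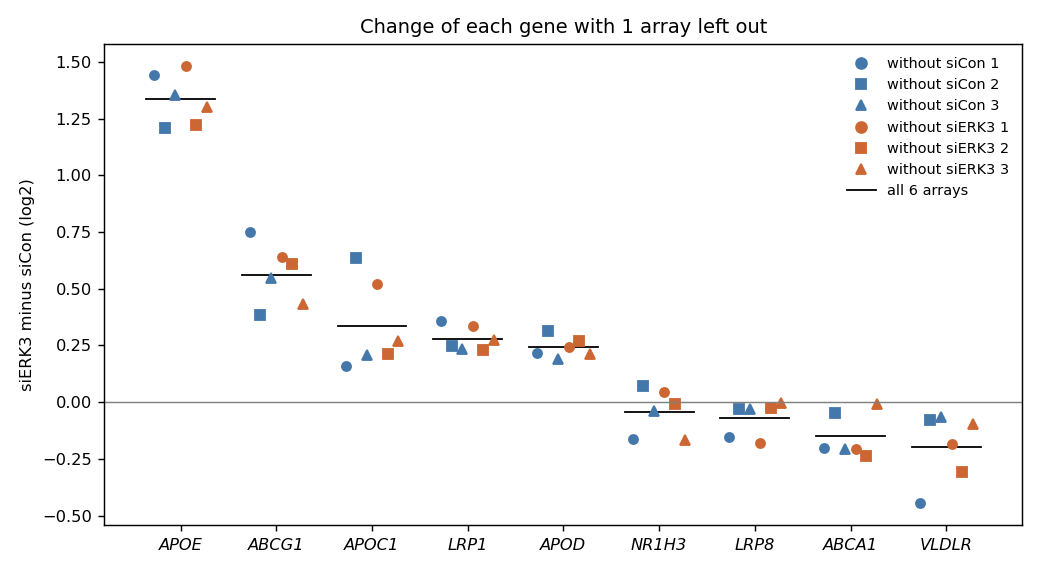
Log2 change (siERK3 minus siCon, vertical axis) of each of the 9 genes when 1 of the 6 arrays was left out; symbols name the array left out and black lines give the change over all 6 arrays. APOE stayed between 1.21 and 1.48, while APOC1 ran from 0.16 to 0.64.

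The genes whose 6 values most resembled those of APOE were found by the root mean square difference of log2 values centred on each gene's mean, among 7720 other genes above background on all 6 arrays. The nearest was SERPINF1, which encodes the secreted serpin PEDF, an inhibitor of vessel growth, at 0.0794. It read 9.73, 9.34 and 9.62 in siCon and 10.61, 10.93 and 10.98 in siERK3, with siCon 2 the lowest array, as for APOE, HIPK3 and BLTP2. HIPK3, a nuclear protein kinase, followed at 0.187, CEMIP, a hyaluronan-degrading protein, at 0.216, IL6ST, the gp130 subunit of cytokine receptors, at 0.237, and BLTP2, a lipid transfer protein, at 0.238. Their log2 changes ranged from 0.93 for BLTP2 to 1.36 for IL6ST. Of the set itself, ABCG1 was the nearest to APOE (0.428) and VLDLR the farthest (0.863). The measure counts both the difference between the groups and the spread within them.

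**Figure D4:**
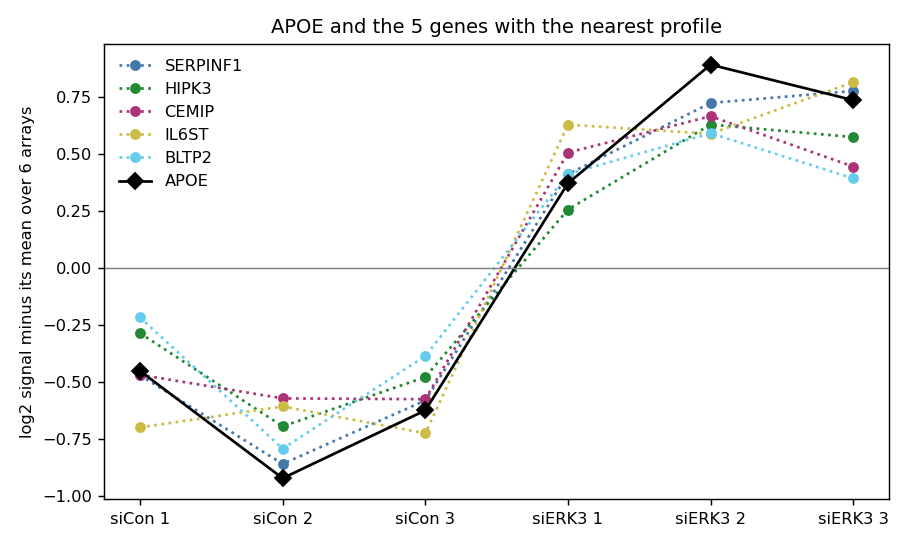
Log2 signal minus each gene's mean over the 6 arrays (vertical axis) for APOE and the 5 genes nearest to it; the horizontal axis lists the arrays, and lines only join the points of a gene. All 6 genes lie below 0 on the siCon arrays and above 0 on the siERK3 arrays, and APOE, SERPINF1, HIPK3 and BLTP2 are lowest on siCon 2.

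The wider pathway was followed through lists of related genes, tested in the same fit over all genes. Before adjustment, 13.5% of all genes had a limma p under 0.05 in one direction or the other, and each list is given with its count at that level. None of the 9 lists described next had a gene past the adjusted threshold in limma.

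LXR targets outside the set had a median log2 change of 0.16 over 13 measured genes, 8 above 0 and 5 below, and 4 had higher and 0 lower values at that level. FASN, the fatty acid synthase, read 11.86, 11.51 and 11.87 in siCon and 12.35, 12.36 and 12.50 in siERK3, a log2 change of 0.65 (SE 0.15, limma adjusted p = 0.0917). SREBF1, the regulator of fatty acid synthesis that LXRs induce, read 11.82, 12.32 and 12.35 and then 12.69, 12.88 and 12.84, a log2 change of 0.64 (SE 0.17, limma adjusted p = 0.142). For both genes all siERK3 arrays were above all siCon arrays, as for 3 of the 13 in the list, with 0 lower, against 19.8% of all genes in either direction. PLTP, which transfers phospholipids between lipoproteins, had a log2 change of 0.47 (SE 0.15, limma adjusted p = 0.23), and LPL, the lipase of lipoprotein triglycerides, of 0.44 (SE 0.19, limma adjusted p = 0.358). The sterol transporters ABCG5 and ABCG8 and the transfer protein CETP were below background on all 6 arrays.

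The partners and coregulators of LXRs had a median log2 change of 0.012 over 11 genes, with 1 higher and 1 lower at p under 0.05 before adjustment. TBL1X, a part of the NCOR corepressor complex, had a log2 change of -0.47 (SE 0.13, limma adjusted p = 0.155), and GPS2, another part of it, of 0.42 (SE 0.14, limma adjusted p = 0.249). The groups did not overlap for 2 genes higher and 2 lower of the 11, TBL1X and GPS2 among them, against 19.8% of all genes in either direction.

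Other receptors of the lipoprotein receptor family had a median log2 change of -0.031 over 12 genes, with 2 higher and 0 lower at p under 0.05 before adjustment. The 2 were LRP6 and LRP4, and LRP4 (log2 change 0.44, SE 0.16, limma adjusted p = 0.275) was below background on all 6 arrays. LRP6, a Wnt coreceptor, read 9.77, 9.80 and 9.68 in siCon and 10.17, 10.13 and 10.40 in siERK3, a log2 change of 0.49 (SE 0.14, limma adjusted p = 0.155). LRP10 had a log2 change of 0.25 (SE 0.14), and the endocytic receptors LRP1B, LRP2 and SORL1 were below background on all 6 arrays.

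Adaptors, chaperones, ligands and proteases of these receptors had a median log2 change of -0.11 over 10 genes, with 1 higher and 1 lower at p under 0.05 before adjustment. THBS1, the matrix protein thrombospondin-1, which is taken up by LRP1, read 14.11, 13.78 and 14.19 in siCon and 14.90, 14.77 and 14.68 in siERK3, a log2 change of 0.76 (SE 0.15, limma adjusted p = 0.0677). FURIN, the protease that cuts the LRP1 precursor, had a log2 change of -0.45 (SE 0.15, limma adjusted p = 0.256). LRPAP1, the chaperone that keeps ligands off LRP1 during its folding, had a log2 change of 0.06 (SE 0.13). RELN, the reelin ligand of LRP8 and VLDLR, and DAB1, their adaptor, were below background on all 6 arrays.

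**Figure D5:**
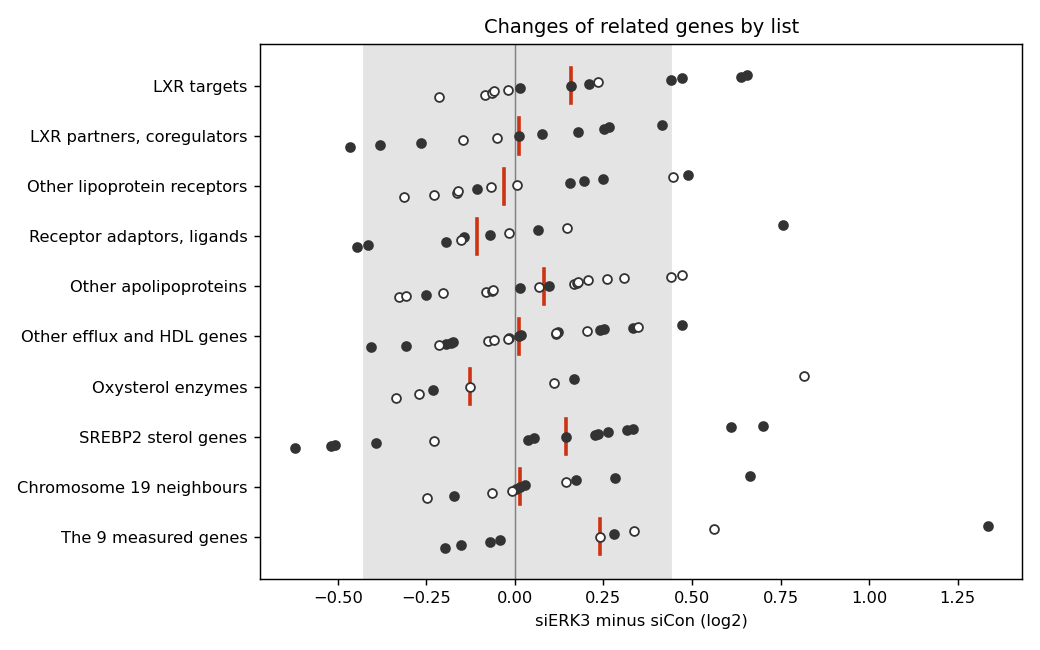
Log2 change (siERK3 minus siCon, horizontal axis) of the genes of each list and of the 9 measured genes of the set; filled points were above background on at least 3 of 6 arrays, red bars are medians and the grey band spans the 5th to 95th percentile of all genes (-0.43 to 0.44). APOE, at 1.34, is the point farthest to the right in the plot.

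Most other apolipoproteins were below background. Of 18 measured, 11 were below background on all 6 arrays, among them APOA1, the main protein of HDL, and APOB, that of LDL, and 2 were above it on all 6, the mitochondrial proteins APOO (log2 change 0.10, SE 0.18) and APOOL (-0.25, SE 0.14). The list had a median log2 change of 0.083, with 2 higher and 0 lower at p under 0.05 before adjustment. The 2 were APOH (log2 change 0.47, SE 0.20) and APOL1 (0.44, SE 0.15), both below background on all 6 arrays.

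Other genes of efflux, HDL and sterol transport had a median log2 change of 0.011 over 21 genes, with 1 higher and 2 lower at p under 0.05 before adjustment. The higher one was PLTP, given above. OSBP, an oxysterol-binding transfer protein, had a log2 change of -0.41 (SE 0.13, limma adjusted p = 0.218) and SOAT1, which esterifies cholesterol for storage, of -0.31 (SE 0.13, limma adjusted p = 0.348). SCARB1, the HDL receptor, read 12.67, 12.57 and 12.61 in siCon and 12.82, 12.93 and 12.84 in siERK3, a log2 change of 0.25 (SE 0.12). In the list, the groups did not overlap for 2 genes higher and 4 lower in siERK3 of the 21, these 4 genes among them, against 19.8% of all genes in either direction.

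Enzymes that make or remove oxysterols had a median log2 change of -0.13 over 7 genes, with 1 higher and 0 lower at p under 0.05 before adjustment. That one was SULT2B1, a sterol sulfotransferase, with a log2 change of 0.82 (SE 0.17, limma adjusted p = 0.0686), and all its arrays were below background. The oxysterol-forming enzymes CH25H, CYP27A1 and CYP46A1 were below background on all 6 arrays too. CYP51A1 and EBP, of the cholesterol synthesis route, had log2 changes of -0.23 (SE 0.12) and 0.17 (SE 0.13).

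Genes of sterol synthesis and uptake under SREBP2, the regulator that answers low cholesterol, had values on both sides of 0. The median log2 change was 0.14 over 15 genes, with 3 higher and 3 lower at p under 0.05 before adjustment. MSMO1 and DHCR7, late enzymes of cholesterol synthesis, had log2 changes of 0.61 (SE 0.12, limma adjusted p = 0.0686) and 0.70 (SE 0.15, limma adjusted p = 0.0722). INSIG1, which holds SREBPs back in the endoplasmic reticulum, and HMGCS1, an early enzyme, had changes of -0.62 (SE 0.14, limma adjusted p = 0.0804) and -0.52 (SE 0.16, limma adjusted p = 0.209).

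Of the genes around APOE and APOC1 on chromosome 19, 11 were measured, with a median log2 change of 0.014 and 1 higher and 0 lower at p under 0.05 before adjustment. TOMM40, the mitochondrial import gene directly before APOE, read 9.56, 9.49 and 9.60 in siCon and 9.86, 10.03 and 9.61 in siERK3, a log2 change of 0.28 (SE 0.15). NECTIN2, an adhesion receptor gene that precedes TOMM40, read 8.92, 8.41 and 8.81 and then 9.61, 9.17 and 9.35, a log2 change of 0.66 (SE 0.18, limma adjusted p = 0.149). On the other side, APOC4 and APOC2, the next genes after APOC1, had changes of 0.01 (SE 0.16) and -0.07 (SE 0.45), and CLPTM1 of 0.17 (SE 0.14). The groups did not overlap for 2 of the 11 neighbours, both higher in siERK3, against 19.8% of all genes in either direction. They were NECTIN2, with a gap of 0.25, and TOMM40, with a gap of 0.0088.

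Macrophages, hepatocytes, adipocytes and glia also make APOE, so their markers were read on the same arrays. All 6 arrays were of the A375 line, so the markers are read as transcripts of that line. In bulk RNA, more A375 cells holding a transcript cannot be told apart from more of that transcript per cell. None of the markers passed in limma. Of 15 macrophage markers, 12 were below background on all 6 arrays, among them PTPRC, CD14, CSF1R, AIF1 and C1QA, and CD68 and LYZ were above it on all 6, with log2 changes of -0.47 (SE 0.13) and -0.85 (SE 0.20). The summed linear signal of the 15, in log2, was 12.74 to 12.90 in siCon and 12.35 to 12.38 in siERK3. Such a sum mostly follows the brightest gene, here CD68, which alone read 12.40 to 12.62 in siCon and 12.01 to 12.10 in siERK3. In the hepatocyte, adipocyte and glial lists the brightest genes were SERPINA1, PNPLA2 and SLC1A3. At p under 0.05 before adjustment this list had 0 higher and 3 lower genes. They were LYZ, CD68 and MSR1, the last of them below background on all 6 arrays. Of 8 hepatocyte markers 7 were below background on all 6 arrays, ALB among them, and SERPINA1 had a log2 change of -0.45 (SE 0.16). Their summed signal was 9.20 to 9.28 in siCon and 8.67 to 9.05 in siERK3, and 1 was higher and 1 lower at p under 0.05 before adjustment. The lower gene was SERPINA1 and the higher was TTR, which was below background on all 6 arrays. Of 6 adipocyte markers 5 were below background throughout, ADIPOQ and PLIN1 among them, and PNPLA2 had a log2 change of 0.12 (SE 0.18). The adipocyte sums were 8.27 to 8.62 and 8.47 to 8.67, with 1 higher and 0 lower at that level. The higher gene was ADIPOQ, which was below background. Of 6 astrocyte and Schwann cell markers 5 were below background throughout, GFAP and AQP4 among them, and SLC1A3 had a log2 change of 0.18 (SE 0.13). The glial sums were 9.01 to 9.23 in siCon and 9.31 to 9.38 in siERK3, with 1 higher and 0 lower at that level. Here the higher gene was NGFR, also below background on all 6 arrays. A link between these markers and the level of APOE was not tested. The melanocyte lineage markers had sums of 12.33 to 12.67 and 12.45 to 12.58 and 0 genes at p under 0.05 before adjustment, with MITF at -0.17 (SE 0.15) and S100B at 0.39 (SE 0.17).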

How the data were processed

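Total RNA of A375 cells was profiled on 6 Affymetrix Clariom S Pico human arrays with the WT PLUS kit, per the design text of the series. The authors deposited a table with a log2 signal for each probe set on each array. That the scale is log2 was judged from the range of the signals, 1.84 to 19.4, with array medians of 7.06 to 7.10. The software and normalization were not given in the sources used here. The zero point of the scale is unknown. Of 24351 probe sets, 17709 carried 1 gene symbol in the platform annotation. The brightest probe set was taken for the 20 genes with several, which left 17687 genes. No filter and no pseudocount were applied.

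The siERK3 arrays were set against the siCon arrays by lmFit and eBayes of limma 3.58.1 (R 4.3.3) without covariates. P-values were adjusted over all genes by Benjamini-Hochberg, and genes under 0.05 passed. The prior had 4.77 degrees of freedom and the median SE was 0.165. The number of arrays limits the precision. Between 45.6% and 47.6% of genes were above background on an array. The set and the 14 gene lists (188 entries) were chosen with earlier results of these data known. Named genes are the set, MAPK6, list genes past the threshold or else the 2 with the smallest p above background on at least 3 arrays, and the 5 genes nearest APOE. Any further gene was picked with its values in view. Promoter windows come from RefSeq (GRCh38.p14). The script was tested on simulated data. Alternatives were quantile, median and cyclic loess normalization, a filter at the 30th percentile, all probe sets, the mean of probe sets, a variance trend with robust eBayes, array weights, the replicate number as a block, and each array left out.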

Additional observations from a re-analysis of the deposited data

How the results depend on the processing

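The log2 change of APOE lay between 1.32 and 1.34 in the 9 settings that kept all 6 arrays and between 1.21 and 1.48 with 1 array left out. With 1 array left out, 0 or 1 genes of the set passed. The set was chosen by this contrast, so these values describe the settings and are no sign of stability. MAPK6 passed in all 15, with changes of -3.11 to -2.94 with 1 array left out. Same-numbered deviations correlated at 0.0492, -0.124 and -0.0386, and differently numbered ones at -0.148 to 0.169, so the replicate numbers showed no pairing. Deviations centred within groups of 3 arrays cannot decide whether arrays shared a culture or batch. With the replicate number as a block, the change of APOE was 1.34, 0 genes of the set passed, and 33 genes passed overall. Over all genes, 169 passed as reported, 70 probe sets with all probe sets tested, 365 with genes under the 30th percentile of mean level left out, 722 with a variance trend and robust eBayes, and 23 to 60 with 1 array left out.

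With the variance trend and robust eBayes, 3 LXR targets, 3 SREBP2 genes, 2 macrophage markers, and 1 gene each of the LXR partners, receptor family, adaptors, efflux genes, oxysterol enzymes and chromosome 19 neighbours passed. With the percentile filter, 3 SREBP2 genes and 1 gene each of the LXR targets, adaptors and oxysterol enzymes passed, and with array weights 1 oxysterol enzyme gene did. With 1 array left out, 0 genes of any list passed, and the sign turned for NR1H3 (-0.17 to 0.071), APOO (-0.025 to 0.26) and PNPLA2 (-0.032 to 0.23), none of which had passed. The cause of these differences was not tested. For APOD, ABCG1 and, in part, APOC1, VLDLR and NR1H3, signal near or under background limits what can be seen. The siCon values of APOE (7.91, 7.44 and 7.73) also lay not far above background (7.56, 7.34 and 7.38). Its fold change shares this limit on the siCon side.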
